A study of Mus musculus with 10 samples.

Results

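Rn45s and the small structural RNAs of the ribosome, RNase P, RNase MRP, 7SK, Ro and telomerase particles were examined in lung RNA-seq libraries from mice fed 2 high fat diets. The genes were chosen by symbol, 7 in number (Rn45s, Rn7sk, Rmrp, Rpph1, Rny1, Rny3 and Terc), because Rn45s was already known to take a large share of the counts in these libraries. Of these, 4 had a row among the 24059 gene symbols of the count table (Rn45s, Rmrp, Rpph1 and Terc), and Rn7sk, Rny1 and Rny3 were not analysed here. A count was present in at least 1 mouse for 3 of the 4, against 14161 of all 24059 symbols.

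The samples were whole lungs, flushed with PBS, of 10 female C57Bl/6 mice aged 14 weeks, taken after pulmonary function testing. The FO group (5 mice) received a fish oil-enriched diet and the CO group (5 mice) a coconut oil-enriched diet, both for 8 weeks. Both diets contained cholesterol, and the sources used here differ on whether its amount was equal. No untreated or normal-diet group was analysed here, so every difference is between 2 high fat diets. Each mouse was a separate sample, and libraries had been made with TruSeq RNA v2 or riboZero, without a statement in the sources used here of which mouse had which.

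Rn45s is the 45S precursor transcribed by RNA polymerase I, which is cut into the RNAs of the small and large ribosomal subunits. RNase P and RNase MRP are related ribonucleoprotein enzymes whose RNA subunits, Rpph1 and Rmrp, are made by RNA polymerase III; the former trims the 5′ end of transfer RNA precursors and the latter takes part in cutting the ribosomal precursor. Rn7sk holds the elongation factor P-TEFb inactive, Rny1 and Rny3 are Y RNAs bound by the Ro and La proteins, and Terc is the template of telomerase. Ribosomal RNA makes up most of the RNA of a cell and carries no poly(A) tail in its mature form, and libraries are usually prepared so as to leave it out.

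The RNA genes for which small counts were found are shown here because they are the catalytic relatives of the set, and a reader can see how short and how rich in G and C they are. In capitals are the 2 longest stretches that both carry, each of 9 bases. The first starts at position 17 of Rpph1 and position 183 of Rmrp, and the other at position 246 of Rpph1 and position 221 of Rmrp, counted from 1 at the 5′ end of each RNA. For Rpph1 the first 300 of 319 bases are given (chr14:50807449-50807767, minus strand, GRCm38), and for Rmrp all 271 bases (chr4:43492788-43493058, minus strand, GRCm38).
Rpph1: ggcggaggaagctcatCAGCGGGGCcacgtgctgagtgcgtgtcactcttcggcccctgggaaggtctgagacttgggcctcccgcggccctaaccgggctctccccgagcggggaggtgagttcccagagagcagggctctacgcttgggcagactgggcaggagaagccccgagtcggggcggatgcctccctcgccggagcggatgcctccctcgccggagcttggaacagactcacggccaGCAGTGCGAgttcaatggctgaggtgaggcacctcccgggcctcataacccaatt
Rmrp: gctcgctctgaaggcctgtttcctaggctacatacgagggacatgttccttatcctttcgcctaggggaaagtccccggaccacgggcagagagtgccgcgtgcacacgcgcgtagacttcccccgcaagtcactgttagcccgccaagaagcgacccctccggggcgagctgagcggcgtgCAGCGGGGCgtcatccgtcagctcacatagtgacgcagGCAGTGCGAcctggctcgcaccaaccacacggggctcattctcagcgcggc

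G and C made up 67.1% of Rpph1 and 64.2% of Rmrp. The longest run of A was 2 bases in Rpph1 and 3 bases in Rmrp. Terc (chr3:96414437-96414859, minus strand, GRCm38), 423 bases long with 67.1% G and C, had a longest run of 5.

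Rn45s took most of the reads counted on genes in 9 of the 10 lungs. In the FO group its counts were 579759, 651709, 309864, 877283 and 205577 in mice 1 to 5, of totals of 830181, 1124963, 356334, 1113064 and 296915. In the CO group they were 184589, 293494, 370847, 78146 and 274506, of totals of 229766, 349133, 507058, 358832 and 530892. The share of Rn45s in all counts was thus 69.8%, 57.9%, 87.0%, 78.8% and 69.2% in the FO mice and 80.3%, 84.1%, 73.1%, 21.8% and 51.7% in the CO mice.

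FO mouse 3 had the highest share, with a 95% exact Clopper-Pearson interval of 86.8% to 87.1%, and CO mouse 4 the lowest, with an interval of 21.6% to 21.9%. The intervals cover counting error only and are far narrower than the distance between mice. CO mouse 4 stood apart from the other 4 CO mice, which lay between 51.7% and 84.1%, and the groups overlapped. Since these large shares were the reason for choosing Rn45s, their size is a description.

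**Figure D1:**
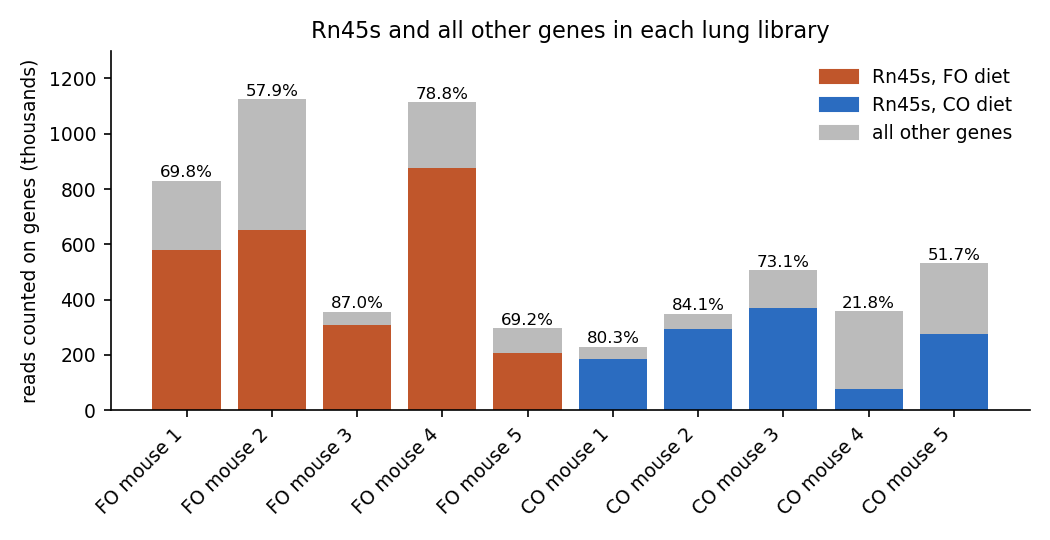
Reads counted on genes in each library (vertical axis, in units of 1000), divided into Rn45s (coloured by diet) and all other genes (grey), with the Rn45s share printed above each bar. CO mouse 4 was lowest at 21.8% and FO mouse 3 highest at 87.0%.

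Reads left for all other genes were 250422, 473254, 46470, 235781 and 91338 in the FO mice and 45177, 55639, 136211, 280686 and 256386 in the CO mice. Expressed per count on other genes, Rn45s stood at 2.32, 1.38, 6.67, 3.72 and 2.25 in the FO mice and at 4.09, 5.27, 2.72, 0.28 and 1.07 in the CO mice. The ratio spread 4.84-fold within the FO group, 18.9-fold within the CO group and 24.0-fold over all 10 mice. The medians of the groups were 2.32 and 2.72.

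The diet comparison of Rn45s asked whether the reads counted on this gene took a different part of the library in FO and CO lungs. Whether those reads came from the uncut precursor or from the mature RNAs cut from it was not tested. Its mean share was 72.6% ± 10.9 in FO and 62.2% ± 25.8 in CO (SD, n = 5 each), a difference of 10.4 percentage points with p = 0.492 (two-sided exact permutation test over all 252 assignments). In the edgeR quasi-likelihood fit across genes the log2 fold change of Rn45s in FO against CO was 0.28 (SE 0.82, 95% interval -1.45 to 2.01), with an unadjusted p of 0.735 and a Benjamini-Hochberg adjusted p of 0.998. The same interval as a fold ran from 0.367 to 4.04 around 1.22, so folds within that range were not excluded with these mice. Without CO mouse 4 the difference in mean share was 0.245 percentage points, and the fitted change was -0.00. Without FO mouse 3 the fitted change was -0.16.

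By the threshold of the study's methods, an unadjusted p under 0.05, 71 of the 2438 genes that passed the default filter on low counts were called (2.91%), 41 higher (1.68%) and 30 lower (1.23%) in FO, and the smallest adjusted p was 0.377. Rn45s was the only one of the 4 genes to pass that filter, and it was not called. In bulk tissue, fewer cells of a type and less RNA per cell cannot be told apart, which holds for every level given here.

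Rpph1, the RNA of RNase P, was counted in all 10 lungs at between 1 and 16 reads. Its counts were 6, 16, 2, 7 and 1 in FO mice 1 to 5 and 2, 2, 1, 1 and 2 in CO mice 1 to 5, which is 32 against 8 in all. These counts were scaled to CPM over the counts outside Rn45s only, here called CPM outside Rn45s. They came to 24.0, 33.8, 43.0, 29.7 and 10.9 in the FO mice and 44.3, 35.9, 7.34, 3.56 and 7.80 in the CO mice. CO mouse 1 was the highest of all 10 on this scale, CO mouse 2 lay among the FO mice and CO mice 3, 4 and 5 below all FO mice, so the groups overlapped.

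The mean of Rpph1 was 28.3 ± 11.9 CPM outside Rn45s in FO and 19.8 ± 18.9 in CO (SD, n = 5 each), with p = 0.413 and an adjusted p of 0.444 over the 3 quantities of its family (two-sided exact permutation test). Pooling the reads of each diet gave 29.2 CPM outside Rn45s (exact Poisson interval 19.9 to 41.2) in FO and 10.3 (4.46 to 20.4) in CO, intervals that cover counting error only and not the spread between mice. Fitted with edgeR on every gene with a count in some mouse, where 587 of 14161 genes were called (4.15%), 365 of them higher (2.58%) and 222 lower in FO (1.57%), Rpph1 had a log2 fold change of 1.27 (SE 0.71, 95% interval -0.12 to 2.67), an unadjusted p of 0.0742 and an adjusted p of 0.905. Leaving out FO mouse 5, CO mouse 1 or CO mouse 2 brought the unadjusted edgeR p to 0.0418, 0.0347 and 0.0351, and in the 7 fits without another mouse it ran from 0.0742 to 0.229. It was 0.173 by DESeq2 and 0.338 with library size alone.

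Rmrp, the RNA of RNase MRP, had 1 read in FO mouse 1 and 3 reads in FO mouse 2 and was at 0 in the other 8 lungs. Both mice with a read were among the 4 with the most counts outside Rn45s, at 250422 and 473254. Its share was 2.07 ± 2.95 CPM outside Rn45s in FO and 0 in CO (SD, n = 5 each), where a count of 0 allows up to 3.88. The two-sided exact permutation test gave p = 0.444 (adjusted p = 0.444). With reads in 2 mice only, both in FO, that test could return no smaller p, so it cannot decide whether the diets differ. The same edgeR fit gave an unadjusted p of 0.0487 and an adjusted p of 0.905, in a fit that called 4.15% of all genes and 2.58% as higher in FO. No fold is given, since the call rested on 4 reads in 2 mice. The unadjusted p was 0.714 by DESeq2, 0.0855 with library size alone and 0.211 without FO mouse 2, and it passed the threshold in 2 of the 10 fits that left out a mouse.

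**Figure D2:**
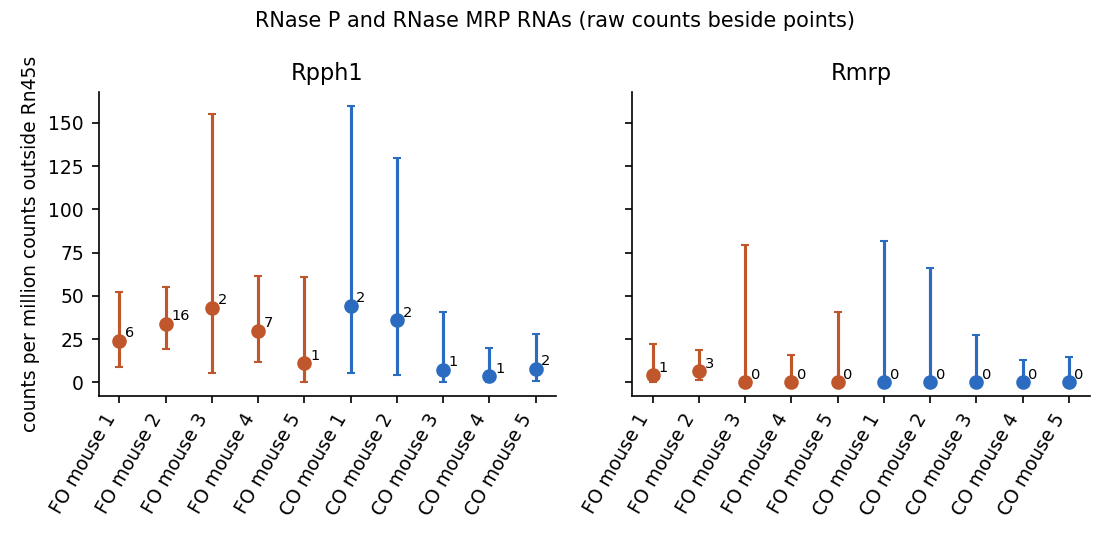
Rpph1 (left) and Rmrp (right) in each lung as CPM outside Rn45s (vertical axis), with exact 95% Poisson intervals as bars and the raw count beside each point. Rpph1 rested on 1 to 16 reads a mouse with overlapping diets, and Rmrp had reads in FO mice 1 and 2 alone.

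Terc, the RNA template of telomerase, was at 0 in all 10 lungs. Over the 1871364 counts outside Rn45s, a count of 0 allows up to 1.60 CPM outside Rn45s (3 counts), and up to 2.73 in FO and 3.88 in CO. Summed, Rmrp, Rpph1 and Terc reached 30.4 ± 12.6 CPM outside Rn45s in FO and 19.8 ± 18.9 in CO (SD, n = 5 each), with p = 0.365 and an adjusted p of 0.444 (two-sided exact permutation test). No difference in the Rpph1 share or in the sum was detectable at this depth, and the Rmrp test could not have shown one.

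Reads of the small RNAs lie close to other genes, and the strand setting of the counting was not given in the sources used here. In the GENCODE annotation of GRCm38, Rpph1 overlaps Ccnb1ip1 by 284 bases on the same strand and lies 74 bases from Parp2, which runs the other way. Ccnb1ip1 was at 0 in every lung, and Parp2, a poly(ADP-ribose) polymerase, had 8, 12, 2, 8 and 4 reads in the FO mice and 3, 0, 0, 8 and 6 in the CO mice. Rmrp overlaps Ccdc107 on the opposite strand by 159 bases, and Ccdc107 had 2, 11, 0, 6 and 1 reads in the FO mice and 0, 0, 1, 2 and 1 in the CO mice. FO mouse 2, which had the most Rmrp reads, also had the most Ccdc107 reads. Reads in the bases shared by Rpph1 and Ccnb1ip1 cannot be told apart by strand, since both genes lie on the same one. Without the strand setting, reads in the bases shared by Rmrp and Ccdc107 cannot be told apart either.

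Other structural RNAs were also rare. Of 27 listed spliceosomal, vault and signal recognition RNAs and related genes, 8 had a row and 2 had a count. Rnu11, of the minor spliceosome, had 1, 3, 1, 1 and 0 reads in the FO mice and 0, 0, 1, 2 and 3 in the CO mice, 6 in each group. Bc1, a small cytoplasmic RNA best known from neurons, had 1 read in FO mouse 4 and 1 in CO mouse 4. None was tested by the default filter, and neither was called in the fit of all genes with any count.

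Across the 10 lungs the Rpph1 share of counts outside Rn45s was higher where Rn45s took more of the library. Pearson's r was 0.69 (permutation p = 0.0163, adjusted p = 0.0459) and Spearman's rho 0.76 (permutation p = 0.0147, adjusted p = 0.0441), over 3 relations computed with 100000 permutations. Without CO mice 4 and 5, the 2 farthest from the median Rn45s share, r was 0.44 and rho 0.62, both closer to 0 and given without a test. The sum of the small RNAs gave r = 0.64 and rho = 0.68 (permutation, adjusted p = 0.0459 and 0.0521) and, without those mice, r = 0.29 and rho = 0.48. Rpph1 was at 1 or 2 reads in 7 of the 10 lungs, and both quantities are divided by parts of the same library. FO mouse 3, CO mouse 2 and CO mouse 1, with the highest Rn45s shares, had 2 reads each. Their counts outside Rn45s were 46470, 55639 and 45177. At a given number of reads, fewer counts outside Rn45s raise both quantities. The permutations did not allow for this, so their p-values cannot decide whether the 2 RNAs are related.

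Small nucleolar RNAs guide the chemical modification of ribosomal RNA. They were summed with the related Cajal body RNAs, by symbols starting Snora, Snord or Scarna. This summed share of counts outside Rn45s followed another order. It was 0.453%, 2.35%, 0.0990%, 0.426% and 0.108% in the FO mice and 0.0819%, 0.494%, 1.16%, 0.165% and 1.36% in the CO mice. FO mouse 2 was the highest, with CO mice 5 and 3 next. Against the Rn45s share the correlation was r = -0.21 (permutation p = 0.539) and rho = -0.42 (permutation p = 0.231), with adjusted p-values of 0.539 and 0.231, and without CO mice 4 and 5 r was -0.74 and rho -0.50.

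Malat1, a long nuclear RNA, took 0.928%, 8.53%, 0.176%, 0.262% and 0.322% of the counts outside Rn45s in the FO mice. In the CO mice it took 0.135%, 0.293%, 1.05%, 0.374% and 6.15%. The mice fell into separate clusters, with FO mouse 2 and CO mouse 5 apart from the other 8, so no correlation was computed. The part of these nuclear RNAs in the Rpph1 and Rmrp values of FO mouse 2 was not tested. Without FO mouse 2 and CO mouse 5 together, the Rmrp p was 0.291.

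Genes whose level followed Rn45s most closely were ranked over 2437 tested genes by Spearman's rho between counts per count outside Rn45s and Rn45s per count outside Rn45s, as a description over 10 mice that share each library's counts in both terms. The median rho was 0.07, and 36 genes lay above 0.8 and 21 below -0.8. The highest were Mir6236 (0.95), Lars2 (0.94), Pnpla8 (0.94), Gng11 (0.93) and Rpl23 (0.92). Lars2 encodes the mitochondrial leucyl-tRNA synthetase, Pnpla8 a phospholipase, Gng11 a G protein gamma subunit and Rpl23 a ribosomal protein. The lowest were Ggnbp2 (-0.93), Chd3, a chromatin remodeler (-0.92), Rabep1 of endosome fusion and the transcription factor Ets1 (both -0.90), and the prolyl isomerase Ppig (-0.89). Without CO mouse 4, a comparison chosen after seeing the data, Mir6236 and Lars2 were still at 0.93 and 0.92.

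Mir6236 is the microRNA gene at the head of that order and lies at chr9:110281287-110281409 (GRCm38.p6). Its mature sequence is shown, from RefSeq, with the seed (bases 2 to 8) in capitals and its place within the gene at chr9:110281353-110281371, plus strand.
mmu-miR-6236: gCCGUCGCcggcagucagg
G and C made up 78.9% of its 19 bases. Whether the rows of Mir6236 or Lars2 share sequence with the ribosomal precursor was not tested, and the Rn45s sequence was not used here.

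The level of Mir6236 in CPM outside Rn45s was 140, 38.0, 689, 208 and 131 in the FO mice and 332, 485, 95.4, 14.3 and 62.4 in the CO mice. FO mouse 3, with the highest Rn45s share, had the highest value and CO mouse 4, with the lowest share, the lowest. The range was 48.3-fold, with 4 reads in CO mouse 4, and the other mice lay between 38.0 and 689. Per 1000 Rn45s counts the same row ranged only 3.74-fold, from 0.0276 to 0.103.

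That of Lars2 was 331, 243, 796, 437 and 219 in the FO mice and 465, 827, 514, 14.3 and 187 in the CO mice. CO mouse 4, with 4 reads, was again below the other 9, which lay between 187 and 827, and the range over all mice was 58.0-fold. Per 1000 Rn45s counts Lars2 ranged 3.69-fold, from 0.0512 to 0.189. Gng11, also high in the order, ranged 2.64-fold, from 228 to 603 CPM outside Rn45s.

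**Figure D3:**
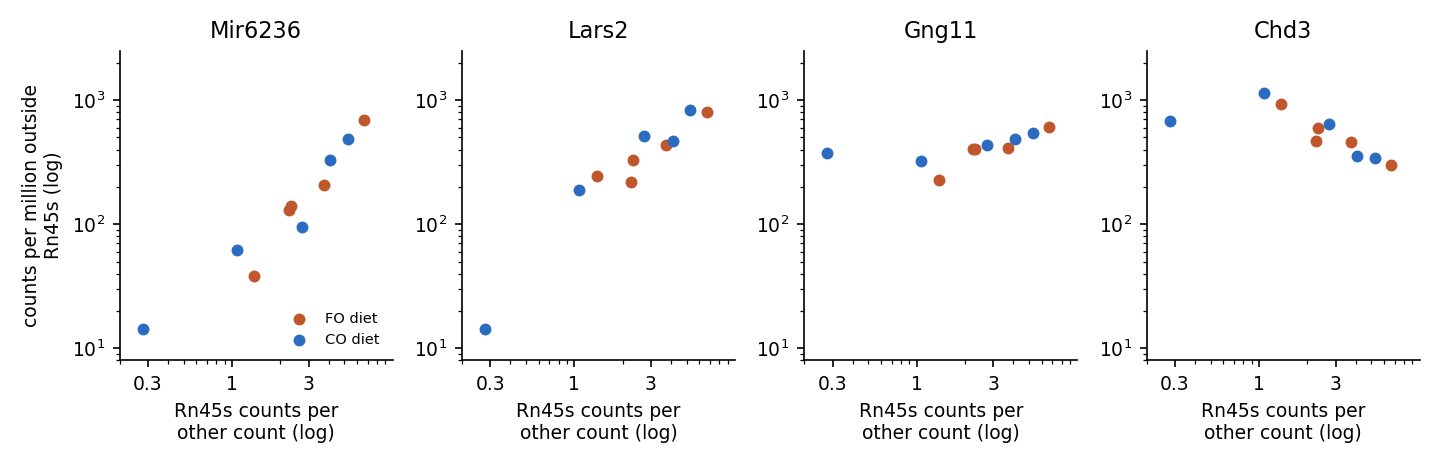
CPM outside Rn45s (vertical axis, log) of Mir6236, Lars2, Gng11 and Chd3 against Rn45s counts per count on other genes (horizontal axis, log), 1 point a mouse coloured by diet. Mir6236 and Lars2 rose over 48.3-fold and 58.0-fold ranges, Gng11 over 2.64-fold, and Chd3 was lowest in FO mouse 3, where Rn45s was highest. The lowest values of Mir6236 and Lars2 rested on 4 reads each in CO mouse 4.

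Spread between mice was then compared on both scales, a comparison chosen after the values were seen. The SD of log2 values over the 10 mice was 1.71 for Mir6236 per count outside Rn45s and 0.59 per Rn45s count, and 1.68 and 0.56 for Lars2. A smaller SD per Rn45s count than per other count was found in 21 of 2437 genes. The median gene had an SD of 0.52 per other count and 1.42 per Rn45s count, and Rn45s itself had 1.34 per other count. The immediate-early genes Dusp1 and Egr1 were also among the 21. Dusp1, at 1.13 per other count and 0.51 per Rn45s count, had the smallest SD per Rn45s count of all 2437 genes. Without CO mouse 4 the count was 115 genes, of which 18 were among the 21, and Lars2 then had 0.78 against 0.34 and Mir6236 1.37 against 0.62.

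Neither gene was called between diets. The edgeR log2 fold change was 0.37 (unadjusted p of 0.628) for Mir6236 and 0.07 (unadjusted p of 0.906) for Lars2, both with an adjusted p of 0.998.

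Proteins that make and process the ribosomal precursor were measured at low counts. Of the 26 genes listed for RNA polymerase I transcription, only Ubtf, the factor that opens ribosomal DNA for transcription, passed the filter, with a log2 fold change of 0.04 (SE 0.28). Of the 72 genes listed for precursor processing, 20 were tested and 0 were called in either direction by edgeR, against 2.91% of all genes. Their median log2 fold change was 0.06, beside 0.00 for all genes tested, and 13 of the 20 were above 0. The most counted were Ncl, or nucleolin, at 0.04 (SE 0.20) and Npm1, or nucleophosmin, at 0.11 (SE 0.20). The range ran from -0.36 for Rbm28 to 0.70 for Mphosph10. Fitted on all genes with any count, edgeR called 0 of 66 genes of this list, against 4.15% of all genes in that fit.

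Protein partners of the small RNAs were fewer. Of the 11 genes listed for RNase P and RNase MRP proteins, 10 had a count and 0 passed the filter. In the wider fit, Rpp21, a subunit of RNase P, was called lower in FO at -1.78 on the log2 scale (SE 0.85, unadjusted edgeR p of 0.0359, adjusted p = 0.905), against 1.57% of all genes in that direction, from 6 counts in FO against 16 in CO. For the 7SK particle, 2 of 7 listed genes were tested: Hexim1, an inhibitor of P-TEFb, at 0.33 (SE 0.33) and Larp7, the La-related protein that binds 7SK, at 0.00 (SE 0.29). Of 3 listed Y RNA binding proteins, Ssb (La) and Trove2 (Ro) were tested, with log2 fold changes of 0.11 (SE 0.21) and -0.17 (SE 0.25). Of 9 telomerase genes only Nop10 was tested, at -0.29 (SE 0.31).

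RNA polymerase III transcribes Rpph1 and Rmrp, and of 31 genes listed for it 5 were tested. Gtf3c6, a subunit of the factor TFIIIC, was higher in FO at 0.61 on the log2 scale (SE 0.29), with an unadjusted edgeR p of 0.0497 and an adjusted p of 0.998, against 1.68% of all genes called higher. The wider fit called 0 of 29 genes of this list, Gtf3c6 among them, against 4.15% of all genes. The median of the 5 was 0.09, and without CO mouse 5 it was 0.51. Across mice the median Spearman's rho of the list with Rn45s per other count was -0.36 over its 5 genes, and that of the 20 precursor-processing genes was -0.15, beside 0.07 for all 2437 genes.

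**Figure D4:**
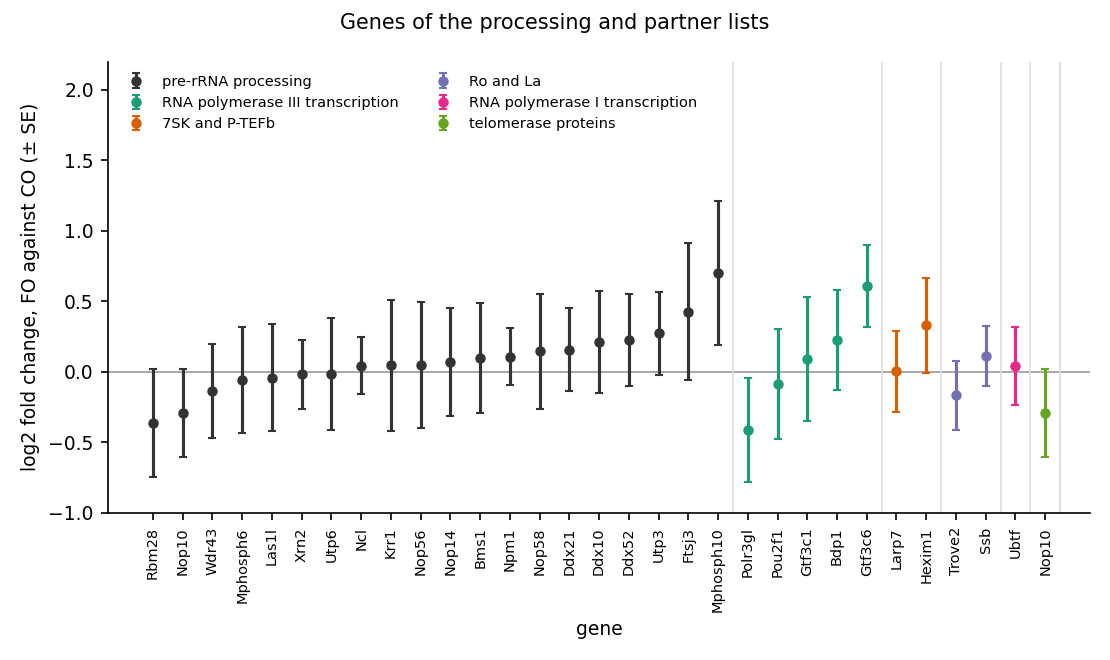
Log2 fold change in FO against CO from edgeR (vertical axis) for each tested gene of the lists, with bars of 1 SE and colours by list; Nop10 belongs to 2 lists. Values ran from -0.41 (Polr3gl) to 0.70 (Mphosph10), and Gtf3c6 at 0.61 was the only gene called.

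The number of other genes detected varied with the reads left outside Rn45s. Between 7006 and 12093 genes other than Rn45s had a count, with means of 9989 ± 1893 in FO and 9282 ± 1781 in CO (SD, n = 5 each). At an equal depth of 45177 counts outside Rn45s, the expected number ranged from 7006 to 7338. The means at that depth were 7209 ± 112 in FO and 7168 ± 139 in CO.

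**Figure D5:**
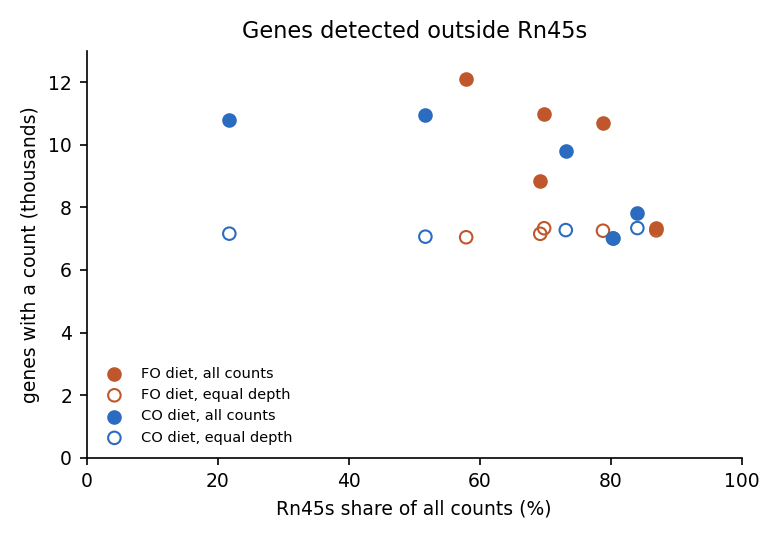
Number of genes other than Rn45s with at least 1 count (vertical axis, in units of 1000) against the Rn45s share of all counts (horizontal axis, %), 1 filled point a mouse, and the expected number at 45177 counts outside Rn45s as open points. Filled points ran from 7006 to 12093 and open points from 7006 to 7338.

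The tissue label was checked against marker genes. Of 11 lung markers, 10 were counted and 9 were counted in every mouse, summing to 10323 to 12433 CPM outside Rn45s in FO and 8394 to 13993 in CO, with Aqp5 at 0. All 7 heart markers had a count, but only 1 was counted in every mouse. They summed to 197 to 598 CPM outside Rn45s in FO and 88.5 to 433 in CO. Of 9 blood cell markers 3 had a count, at 209 to 394 in FO and 35.1 to 354 in CO, and the 6 hemoglobin rows were at 0 in every mouse. The part of heart and blood RNA in the values above was not tested.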

How the data were processed

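Lung RNA of 5 FO and 5 CO mice was sequenced. The authors deposited raw read counts per gene symbol, without normalization, made with STAR 2.4.0f1, SAMtools 0.1.19 and HTSeq on mm10, as the submitters' processing notes list. The annotation and strand setting of the counting were not given in the sources used here. Totals were 229766 to 1124963 counts a mouse.

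Diets were compared with the quasi-likelihood test of edgeR 4.0.16 (R 4.3.3, TMM, default filter, 2438 genes, common dispersion 0.0956). The filter's minimum of 10 counts applies at the median library size and scales with each library's total, Rn45s included. It also asks for a total of at least 15. Genes below the filter were taken from the fit of the 14161 genes with any count. The threshold was an unadjusted p under 0.05, with Benjamini-Hochberg adjusted p beside it. Shares were compared with exact permutation tests (scipy 1.17.1). The smallest p these allow is 0.00794 where the values of the 10 mice all differ, and 0.444 for Rmrp, with reads in 2 mice only. The floor was 3 counts. The tests set the difference between diets against the spread between mice. The fits were tested on simulated data.

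The members and lists were chosen with earlier results of these data known. Named genes were the members, list genes with an unadjusted p under 0.05 (at most 4, otherwise the 2 with the highest mean count), other structural RNAs, and the 5 highest and 5 lowest by Spearman's rho with Rn45s. Dusp1, Egr1, Rbm28, Mphosph10 and Polr3gl are named outside it, after seeing their values, as is Rpp21 from the wider fit. Sequences and positions are from GENCODE M21 and RefSeq on GRCm38. Alternatives were DESeq2 1.42.0, RLE factors, library size alone, scaling without Rn45s, other filters, a replicate block and each mouse left out.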

Additional observations from a re-analysis of the deposited data

Results flagged for a closer look

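In 15 groups of 5 mice, the distance of the highest or lowest mouse from its nearest neighbour was set against the range of the group, and 2 exceeded Dixon's critical value of 0.71. Chance flags about 1 in 20 groups, or 0.75 of 15. Malat1 was not among the 15, though FO mouse 2 and CO mouse 5 stood apart in it. They had 8.53% and 6.15% of the counts outside Rn45s, and the next mouse of each group 0.928% and 1.05%. The summed small nucleolar RNA share of counts outside Rn45s was 2.35% in FO mouse 2, with the next FO mouse at 0.453% (ratio 0.843). Mir6236 stood at 689 CPM over the counts outside Rn45s in FO mouse 3, with the next FO mouse at 208 (ratio 0.739).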

How the results depend on the processing

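Of 176 recomputed values, 134 kept their sign and were counted as unchanged. With a test, this meant the same side of the threshold. Without a test, it meant a list median within the spread between mice, or a number of called genes within a set fold. The median of all genes tested was counted as unchanged under every setting, without a criterion. Some tests of shares could not have passed the threshold, so their being unchanged says nothing about stability. These were the Rmrp shares not on the log2 scale, with reads in 2 mice only, and the permutations within same-numbered pairs. Another 18, all of them medians of RNA polymerase III, precursor processing or all genes, took the other sign and have no test. The number of genes called was 71, with 62 by DESeq2, 73 with RLE factors and 72 with scaling that left out Rn45s, against 36 with library size alone, 587 with any count and 15 with at least 10 counts in every mouse. Leaving out each mouse gave 54 to 154, the latter without FO mouse 2. Library size alone moved the median log2 fold change of all genes to -0.55, that of precursor processing to -0.42 and that of RNA polymerase III to -0.53. Without each mouse the last ranged from -0.12 to 0.51, the latter without CO mouse 5. The Rn45s log2 fold change ranged from -0.16 (without FO mouse 3, edgeR p of 0.853) to 0.65, was -0.00 without CO mouse 4, and its share difference ranged from 0.245 to 15.8 percentage points. Rpph1 ranged from 0.89 to 1.62 in log2 fold change without each mouse and from 0.84 to 1.31 under the other settings. The Rmrp p ranged from 0.0322 to 0.211 without each mouse, 8 of 10 of them above the threshold, and was 0.714 by DESeq2, 0.0855 with library size alone, 0.463 with the replicate block and 0.291 without FO mouse 2 and CO mouse 5. The cause was not tested, apart from the smaller and larger numbers of genes that the filters tested.

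Same-numbered mice were different animals, and their deviations from the group means correlated at -0.12 on average (-0.41 to 0.03, 5 pairs), so the numbers did not pair them. With the number as a replicate block, 55 genes were called, Rn45s was at 0.61 (edgeR p of 0.621) and Rpph1 at 0.98 on the log2 scale. The precision of Rpph1 and Rmrp is limited by their 1 to 16 and 0 to 3 reads a mouse, and Terc had a count of 0. Why these counts were low was not tested.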
